A study of Mus musculus with 2 samples.

Results

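The genes described here encode the proteins that carry, take up, store and oxidise iron and that bind or break down haem and free haemoglobin. They are the members of a fixed list of 10 genes: Trf, Tfrc, Fth1, Ftl1, Hp, Hpx, Cp, Heph, Hfe and Hmox1. A probe set, the group of short probes that an Affymetrix array summarises into 1 value, was taken as a member where its only annotated gene symbol was on the list. This gave 19 of the 34945 probe sets with 1 gene symbol, and they represent 8 of the 10 genes. The array's probe sets for Trf, the plasma iron carrier transferrin, and for Ftl1, the ferritin light chain, are annotated to more than 1 gene, so no value is given for either.

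The tissue was epididymal white fat, the visceral pad beside the epididymis, of male C57BL/6 mice, with 1 array per diet. The chow array came from a mouse kept on normal chow, and the high-fat diet array from a mouse that had received the high-fat diet for 7 weeks. Dietary challenge began at 9 weeks of age. With 1 array per diet there is no estimate of the spread between animals and no test of the diet, and "higher" and "lower" describe these 2 arrays only. The mature adipocyte markers were bright on both arrays, with Adipoq, the gene of adiponectin, at intensities of 8372.1 on chow against 8718.4 on the high-fat diet.

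Iron travels in plasma on transferrin and enters cells when transferrin binds the receptor encoded by Tfrc. Inside the cell it is stored in ferritin, a shell of heavy and light chains, and it leaves through ferroportin, helped by copper enzymes that oxidise it. Haemoglobin and haem set free from red cells are captured by haptoglobin and haemopexin, and haem is opened by haem oxygenase. Fat cells are a known source of haptoglobin outside the liver, and macrophages of fat are known to hold and recycle iron.

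With each gene read from its brightest probe set, Hfe was the 1 member that differed by 2-fold or more between the diets. It was 2.30-fold higher on the high-fat diet in that probe set and 1.51-fold in its other, 1.86-fold in the mean of both. Cp, which encodes the plasma ferroxidase ceruloplasmin, was lower on the high-fat diet in all 8 of its probe sets, by very different amounts, and 2 of them, neither the brightest, passed 2-fold. Hpx and Heph, the genes of haemopexin and of the membrane ferroxidase hephaestin, were lower by less than 1.5-fold, each in a single probe set. Hp, Fth1, Tfrc and Hmox1 differed by 0.12 log2 units or less in their brightest probe sets. In the count of genes, each represented by its measured probe set with the highest mean log2 intensity, 1 of 8 members was 2-fold or more higher, where 1.16% of all 14066 measured genes were, and 0 of 8 were 2-fold or more lower, where 1.33% of all genes were. Of the 8 members 3 were higher and 5 lower, near the 52.9% of all measured genes that were lower, a share the list counts given later can be read against too, and their median difference was -0.08 log2 units, beside -0.02 over all measured genes. Centring on reference genes, an alternative chosen after the data were seen, changed the split to 1 higher and 7 lower.

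The yardstick for these differences is how far probe sets of the same gene disagree. Over 5196 genes that had at least 2 probe sets above the floor on each array, a probe set lay off the mean difference of its gene with a pooled SD of 0.32 log2 units. This SD contains no variation between animals. It was larger for weak genes, at 0.37 below a mean intensity of 100, 0.29 from 100 to 400 and 0.20 above 400. The floor, a limit for weak signal, was each array's 40th percentile, 28.6 for chow and 27.9 for the high-fat diet. Differences are given in log2 units, with chow subtracted from the high-fat diet. Of the 19 member probe sets 18 were above the floor on both arrays and 1, for Tfrc, was under it on both. Intensities of different probe sets depend on their probes and are not compared with each other, so no order of levels among the genes is given. The summed intensities given later for marker lists weigh the bright probe sets most.

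**Figure D1:**
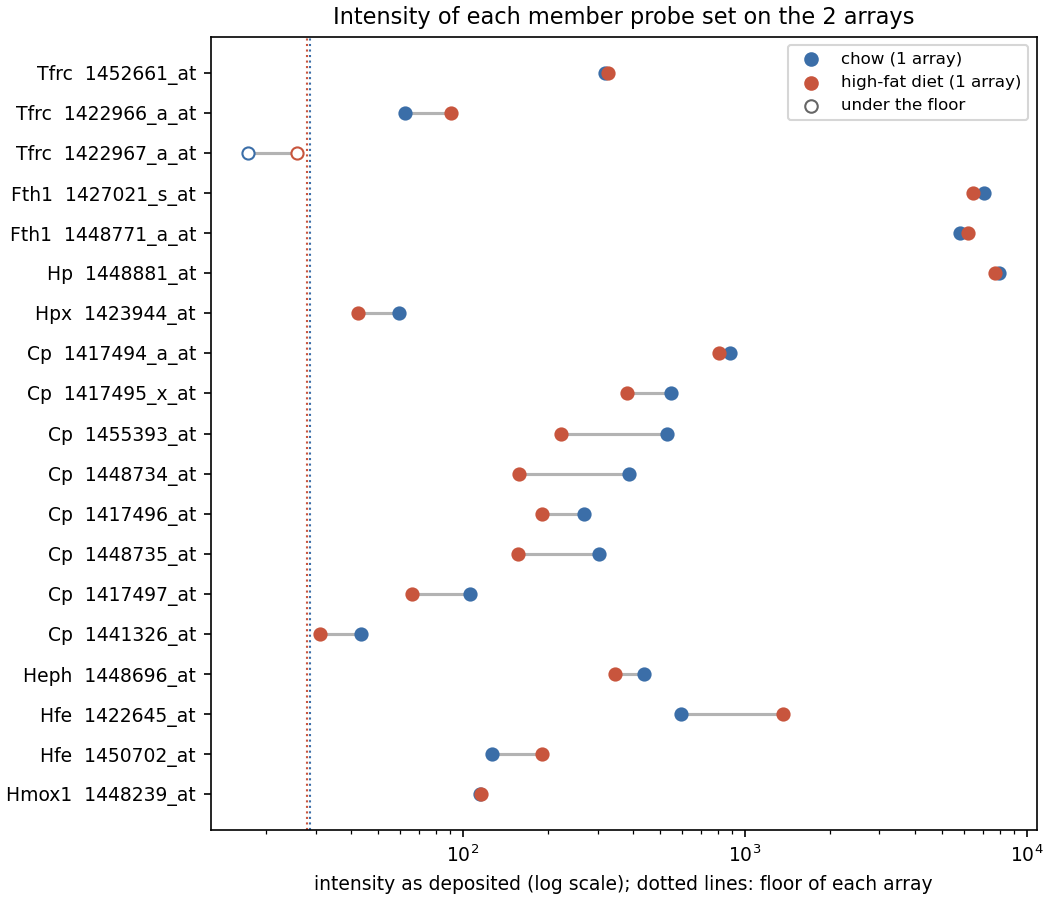
Intensity as deposited (log axis) of the 19 member probe sets on both arrays, with each array's floor as a dotted line and values under it as open points. The high-fat diet points of Hfe lie to the right of the chow points, those of the 8 Cp probe sets lie to the left, and the points of Hp and Hmox1 nearly coincide.

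Hfe encodes an MHC class I-like membrane protein that pairs with beta-2 microglobulin and binds the transferrin receptor, and its loss causes iron overload. Its brighter probe set, 1422645_at, had an intensity of 591.8 on chow against 1361.3 on the high-fat diet, a difference of 1.20. Its other probe set, 1450702_at, had 126.6 on chow against 190.7 on the high-fat diet, a difference of 0.59 or 1.51-fold. Both probe sets were higher on the high-fat diet, and both differences exceeded the pooled SD of 0.32, although only the brighter passed 2-fold. The 2 probe sets were designed from the same source sequence, so they are not independent of each other. Their mean difference was 0.90 ± 0.43 (SD over 2 probe sets). Of all measured genes, 1.17% differed by as much as Hfe in either direction. Of the 5196 genes, 1.73% had all their probe sets higher by 0.5 or more, as Hfe had. This limit was not planned in advance, and the weaker Hfe probe set, at 0.59, lies just above it. B2m, the gene of its partner beta-2 microglobulin, had 6761.7 on chow against 7543.9 on the high-fat diet, a difference of 0.16.

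Hfe, Cp and Hpx had the largest mean differences over their probe sets among the members with a promoter in the RefSeq table (GRCm38.p6), and the 250 bases before an annotated start of each are shown for this reason, 5′ to 3′ on the gene's strand. Hfe lies at chr13:23710855-23711104 on the minus strand, Cp at chr3:19956999-19957248 on the plus strand (the downstream of its 2 annotated starts), and Hpx at chr7:105600117-105600366 on the minus strand. Capitals mark matches, on either strand, to 2 motifs chosen after the sequences were seen: the antioxidant response element core TGANNNNGC, bound by NRF2 and related factors, and the C/EBP-type motif TTNNGCAA.
Hfe: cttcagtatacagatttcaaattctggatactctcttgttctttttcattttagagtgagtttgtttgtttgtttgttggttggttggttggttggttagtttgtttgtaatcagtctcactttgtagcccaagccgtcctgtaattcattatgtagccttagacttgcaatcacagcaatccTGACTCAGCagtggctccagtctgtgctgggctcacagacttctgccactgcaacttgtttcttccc
Cp: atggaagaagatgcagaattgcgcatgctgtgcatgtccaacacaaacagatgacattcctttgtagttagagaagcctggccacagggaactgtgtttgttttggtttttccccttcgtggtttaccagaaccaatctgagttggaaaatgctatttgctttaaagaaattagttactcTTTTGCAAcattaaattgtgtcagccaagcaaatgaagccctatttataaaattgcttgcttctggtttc
Hpx: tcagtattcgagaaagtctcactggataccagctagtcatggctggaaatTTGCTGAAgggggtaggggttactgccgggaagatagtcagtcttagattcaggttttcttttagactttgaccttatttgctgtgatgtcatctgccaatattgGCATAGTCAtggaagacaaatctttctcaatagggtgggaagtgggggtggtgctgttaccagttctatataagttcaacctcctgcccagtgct

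The Hfe window held TGACTCAGC, a match to the antioxidant core, 67 to 59 bases before the start. Such a match occurred in 35.2% of the 32851 RefSeq windows of this length, so it is a common one. The Cp window held the C/EBP-type match TTTTGCAA 70 to 63 bases before its start, and the Hpx window held TTGCTGAA, the same motif on the other strand, 200 to 193 bases before its start. The C/EBP-type motif occurred in 9.56% of all windows. Hpx also held an antioxidant core match on the other strand, GCATAGTCA. The table held 9 windows for 6 listed genes (Cp, Fth1, Ftl1, Hfe, Hpx and Tfrc), of which 2 held the antioxidant core and 3 the C/EBP-type motif. The third was a window of Fth1. These matches describe letters only.

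Ceruloplasmin carries copper in plasma and oxidises iron as it leaves cells, and a splice form of the same gene is anchored to the cell surface. Its brightest probe set, 1417494_a_at, differed little, with 883.7 on chow against 810.4 on the high-fat diet, a difference of -0.12. The strongest differences were in 1448734_at, with 386.6 on chow against 158.5 on the high-fat diet, 2.44-fold lower. Close to it was 1455393_at, with 530.1 on chow against 222.6 on the high-fat diet, 2.38-fold lower.

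Between these lay 5 other Cp probe sets. The intensity of 1448735_at was 303.3 on chow against 157.3 on the high-fat diet, 1.93-fold lower. That of 1417497_at was 105.7 and 66, a difference of -0.68. The probe set 1417495_x_at had 544.5 on chow against 382.7 on the high-fat diet, 1.42-fold lower. These 3, and the remaining pair, differed by more than the pooled SD.

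In that pair, 1417496_at had 268.7 on chow against 190.7 on the high-fat diet, and 1441326_at had 43.6 on chow against 31 on the high-fat diet, close to the floor. Both were 1.41-fold lower. Over the 8 probe sets the mean difference was -0.72 ± 0.41 (SD over probe sets, which are not replicates), the median -0.59 and the range 1.16. Of the 8 probe sets 6 come from the same source sequence.

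On these arrays a suffix _at marks a probe set meant for 1 transcript, _a_at one that matches several transcripts of a gene, and _s_at or _x_at one that can also match other sequences. The 6 plain _at probe sets of Cp had a median difference of -0.81, and the 2 others differed by -0.12 and -0.51. Whether the probe sets read different splice forms was not tested. Of the 273 genes that had at least 5 probe sets above the floor, 12.5% had all of them lower, and 6, Cp included, had a median as low as that of Cp. The spread among its probe sets was also wide, since 11.7% of these genes had a range as wide and the median range was 0.63. At the level of probe sets, 2 of the 18 measured member probe sets, both of Cp, were 2-fold or more lower, where 1.35% of all measured probe sets with 1 gene symbol were, and 1, of Hfe, was 2-fold or more higher, where 1.23% were.

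Heph encodes a membrane-bound relative of ceruloplasmin that oxidises iron exported through ferroportin. Its only probe set had 437.3 on chow against 346.9 on the high-fat diet, a difference of -0.33 or 1.26-fold lower. This is about the size of the pooled SD, and 32.7% of all measured genes differed by as much. Cp and Heph, the members that encode copper ferroxidases, were thus lower on the high-fat diet array.

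**Figure D2:**
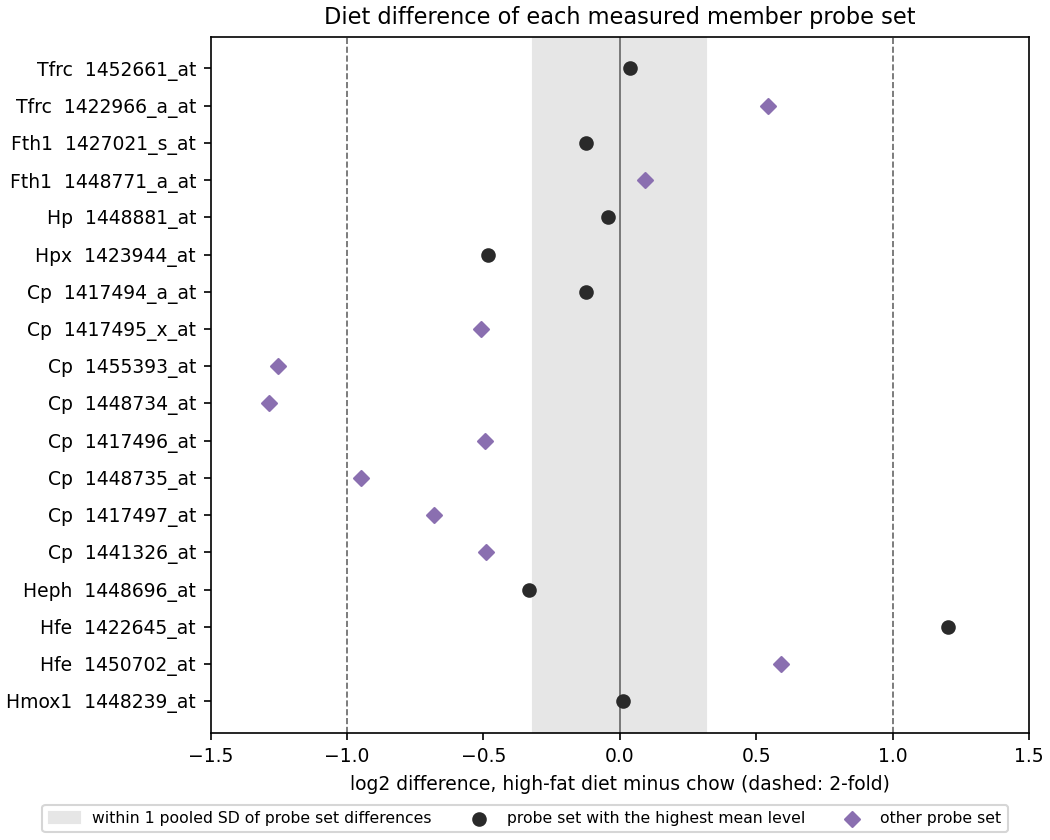
Log2 difference, high-fat diet minus chow, of the 18 measured member probe sets, with the probe set of highest mean level of each gene as a black circle, the others as violet diamonds, and the band of 1 pooled SD (0.32) in grey. The 8 Cp points spread from -1.29 to -0.12, both Hfe points lie above the band, and Hp, Fth1 and Hmox1 lie inside it.

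Markers of other cell types that a fat pad can hold were compared on the same arrays. Mesothelial markers, from the lining of the pad, were lower for 6 of the 8 genes, with a median of -0.68, and their summed intensity was 1655.7 on chow against 1198 on the high-fat diet. These 6 were lower on the same array as Cp, while Msln differed by 0.45 and Krt8, in its brightest probe set, by 0.34. Hepatocyte markers were lower for 7 of the 8 measured genes, with a median of -0.56. Among the members that the liver makes in quantity, Hpx and Cp were lower, and Hp was nearly level at -0.04. The summed intensity of the hepatocyte markers was 9383 on chow against 7922.4 on the high-fat diet, most of it Cyp2e1, which fat also expresses. Without Cyp2e1 it was 630.3 and 361.3. Apoh, the gene of apolipoprotein H, had 137.4 on chow against 49.2 on the high-fat diet, 2.79-fold lower, but 0.15 in its other probe set. Apoa1, the gene of apolipoprotein A-I, had 83.5 and 18.3, the latter under the floor, at least 2.99-fold lower, with -0.44 and -0.39 in its other probe sets. Alb, the gene of albumin, was at 141.5 and 121.5, and Ambp was under the floor on both arrays. The part of these cells in the values of Cp and Hpx was not tested. In whole tissue, fewer cells of a type and less RNA per cell cannot be told apart.

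Haptoglobin binds free haemoglobin, and the macrophage receptor CD163 can take up the complex. Hp had an intensity of 7967.1 on chow against 7724.7 on the high-fat diet, a difference of -0.04. This probe set, like those of Fth1, was near the top of the range of the arrays, whose highest values were 10726.6 and 11559.7, and whether such bright signals are compressed was not tested. Haemopexin binds free haem. Hpx had 59.2 on chow against 42.4 on the high-fat diet, 1.40-fold lower, in its only probe set. It was weak on both arrays, and 18.5% of all measured genes differed by as much. Lrp1, which encodes the receptor known to take up the haem-haemopexin complex, had 1230.4 on chow against 1023.1 on the high-fat diet, a difference of -0.27, and -0.89 in its other probe set.

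Tfrc, the gene of the transferrin receptor, had 3 probe sets that did not give the same size of difference. The brightest, 1452661_at, had 317.9 on chow against 326.1 on the high-fat diet, a difference of 0.04. A weaker one, 1422966_a_at, had 62.4 on chow against 90.9 on the high-fat diet, 1.46-fold higher. In the third, 1422967_a_at, values of 17.3 and 25.7 were under the floor on both arrays, and no difference is given. The 2 measured probe sets shared a direction, with a mean of 0.29 ± 0.36 (SD over probe sets).

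Fth1 encodes the ferritin heavy chain, which oxidises iron as it enters the shell. Its probe set 1427021_s_at had 7033.8 on chow against 6453.6 on the high-fat diet, a difference of -0.12. The other, 1448771_a_at, had 5774.9 on chow against 6163.2 on the high-fat diet, a difference of 0.09. The probe sets went in opposite directions by less than the pooled SD, so Fth1 had no direction here. Both can match more than 1 transcript, and ferritin genes have processed copies in the genome, so the signal may not come from Fth1 alone. Iron is known to control ferritin mainly through translation, which mRNA levels do not show, and the transferrin receptor through the stability of its mRNA.

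Hmox1, the inducible haem oxygenase that releases iron from haem, had 115.2 on chow against 116.2 on the high-fat diet, a difference of 0.01 in its only probe set. Of all measured genes 96.3% differed by as much or more. Red blood cell markers were weak, with 3 of 6 higher and 3 lower, a median of 0.01 and a summed intensity of 457.2 on chow against 474.3 on the high-fat diet. Slc4a1, counted as lower, had 6.5 on chow, under the floor, against 28.3 on the high-fat diet. Its difference of -0.02 comes from raising the chow value to the floor of 28.6, although the deposited value was higher on the high-fat diet. Macrophage markers, from cells known to take up haemoglobin, were lower for 6 of the 10 genes, with a median of -0.40 and a sum of 7077.5 and 6918.4. Of these Cd5l, at 63.2 and 25.7, the latter under the floor, was at least 2.27-fold lower. The 4 higher macrophage markers were Adgre1, Cd68, Csf1r and Lyz2, by 0.07, 0.22, 0.07 and 0.16 in their brightest probe sets. Under centring on reference genes, added after the data were seen, 8 of 10 macrophage markers and 6 of 6 red blood cell markers were lower. The red blood cell count includes Slc4a1, with the same limit. Under quantile normalization, lowess centring and median centring, 4 of 6 red blood cell markers were instead higher. Macrophage markers were lower for 7, 7 and 6 of 10 genes in those settings. The part of these cells in the values of the members was not tested.

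**Figure D3:**
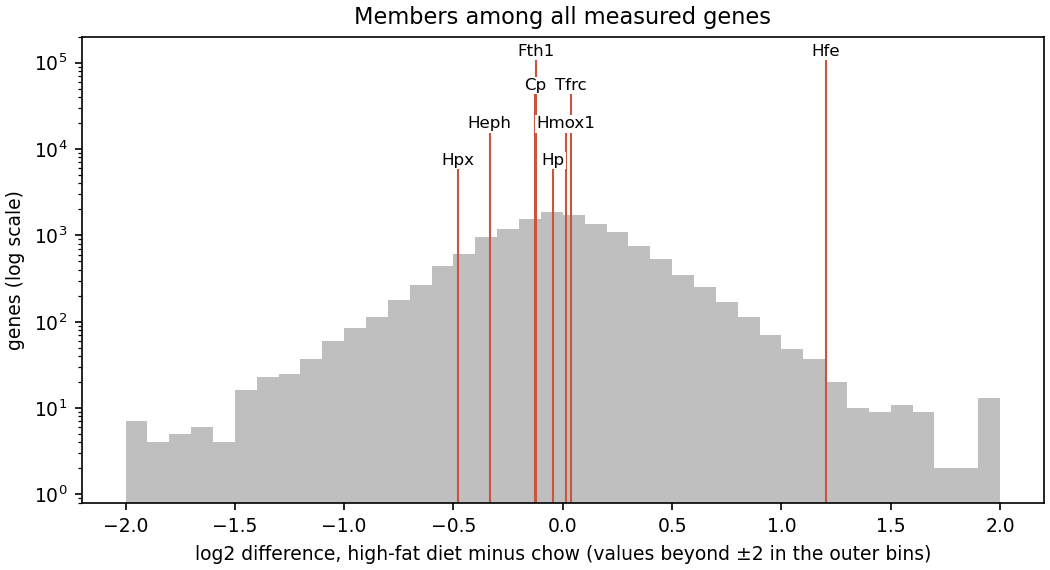
Histogram of the log2 difference, high-fat diet minus chow, of all 14066 measured genes (log count axis), with the 8 measured members as red lines at the value of their brightest probe set. Hfe stands at 1.20 in the right tail, and the other 7 lie between -0.48 and 0.04.

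Other genes of iron and haem handling were compared through 7 lists, of 85 genes in all. Of the 72 measured, 36 were higher and 36 lower, 2 were 2-fold or more higher and 0 lower, and the median difference was -0.01, close to that of all genes. The number that passed 2-fold can be set against the 1.16% and 1.33% of all genes. No list is a test.

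Genes of iron transport and reduction were lower for 10 of the 16 genes, with a median of -0.14, and none reached 2-fold. Scara5, a ferritin receptor, had 1289.9 on chow against 746.4 on the high-fat diet, 1.73-fold lower, but its other probe set differed by 0.73 in the opposite direction. Cybrd1, an iron reductase, was 1.43-fold higher, from 43.8 to 62.7. Among genes of iron sensing and hepcidin control, 6 of 10 were lower, with a median of -0.08. Hamp, the gene of the iron hormone hepcidin, had 108.2 on chow against 69.6 on the high-fat diet, a difference of -0.64, with -1.46 in its other probe set, and its near-identical copy Hamp2, which its probes may also read, was under the floor on both arrays. Neo1, which encodes neogenin, a binding partner of hemojuvelin, was 1.43-fold higher in its brightest probe set, while its other 3 differed by -1.60, -0.29 and -0.32. Its direction therefore depends on the probe set.

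Genes of haem synthesis were higher for 5 of the 8 genes, with a median of 0.10. Cpox, a late enzyme of the route, was 1.44-fold higher in its brightest probe set and differed by -0.30 in the other. Alad, an early enzyme, was 1.27-fold lower, from 363.5 to 287.2, with -0.65 in the other. Genes of haem and haemoglobin uptake, export and breakdown were higher for 7 of the 12 genes, with a median of 0.04. Slc48a1, a haem transporter of endosomes and lysosomes, had 621.3 on chow against 1205.4 on the high-fat diet, 1.94-fold higher, although its other probe set differed by 0.07. Cd163, the haptoglobin-haemoglobin receptor, had 389.1 on chow against 268 on the high-fat diet, lower by 1.45-fold in the sole probe set measured. Hp and Cd163 thus differed by -0.04 and -0.54.

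Iron-sulphur cluster assembly genes were higher for 7 of the 10 genes, by small amounts, with a median of 0.04. Glrx5, a glutaredoxin of cluster assembly, was 1.31-fold higher, from 1216.5 to 1598, and Lyrm4 differed by -0.10. Under centring on reference genes, these 3 last lists had 4 of 8, 5 of 12 and 4 of 10 members higher, so their majority depends on the scaling. NRF2 target genes, a group to which Hmox1 and Fth1 also belong, were lower for 6 of the 7 genes, with a median of -0.28. Gsr, the glutathione reductase, was 1.48-fold lower, from 184.5 to 124.3, with -0.52 in its other probe set. The member with a higher value, Slc7a11, was above the floor on the high-fat diet only, at 30.3. Quantile normalization and lowess centring gave 5 of 7 lower.

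Acute phase genes, to which Hp, Hpx and Cp are also counted, were higher for 6 of the 10 measured genes, or 5 of 10 under centring on reference genes. Their median was 0.12, and 5 more were under the floor on both arrays. Orm1, the gene of orosomucoid, had 497.6 on chow against 1438.5 on the high-fat diet, higher by 2.89-fold in the sole probe set measured. Lbp, the lipopolysaccharide-binding protein gene, had 812.1 on chow against 1747 on the high-fat diet, higher by 2.15-fold (log2 difference 1.43 in the second probe set). Crp was weak and 1.54-fold lower, from 47.5 to 30.9. Orm1 and Lbp were higher on the high-fat diet array, where Hp was nearly level and Cp and Hpx were lower.

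**Figure D4:**
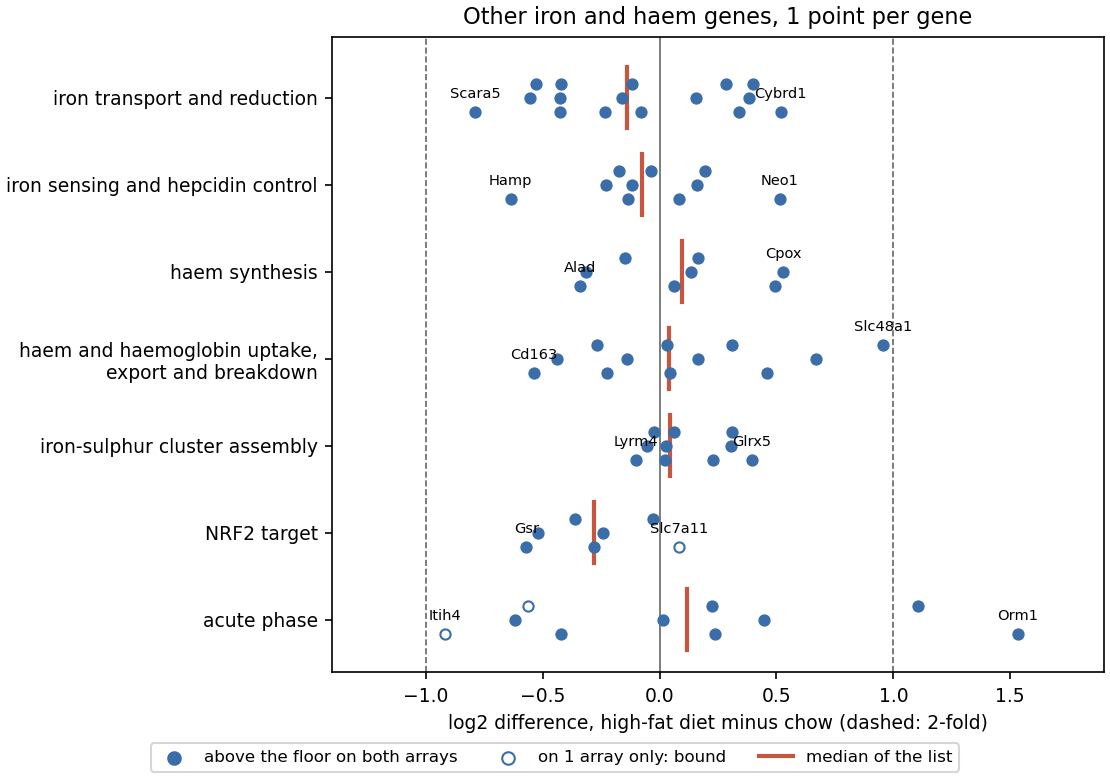
Log2 difference, high-fat diet minus chow, of each measured gene of the 7 lists, 1 point per gene from its brightest probe set, with the list median as a red bar and bounds from genes above the floor on 1 array only as open points. Orm1 at 1.53 and Lbp at 1.11 in the acute phase list are the 2 points beyond 2-fold, and the list medians lie between -0.28 and 0.12.

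Of the members, Hfe and Cp were those whose difference depended most on the choice of probe set. Hfe was between 0.59 and 1.23 over 11 alternative settings, and Cp between -1.25 and -0.10. Tfrc, Fth1 and Hmox1 lay on both sides of 0.

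**Figure D5:**
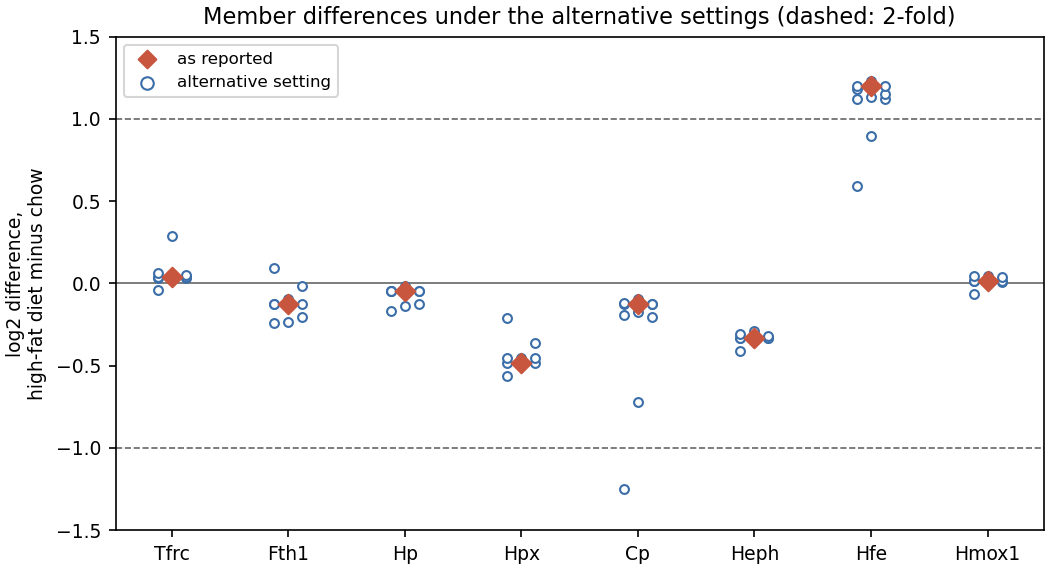
Log2 difference, high-fat diet minus chow, of the 8 measured members as reported (red diamonds) and under the alternative settings (open circles). Hfe lies between 0.59 and 1.23 and Cp between -1.25 and -0.10. In each setting the other 6 members lie within the pooled SD of 0.32 of their own value as reported.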

How the data were processed

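Total RNA of epididymal fat was hybridised as biotinylated cRNA to Affymetrix mouse arrays, 1 per diet, per the labels' protocols. The deposited table gives 1 linear intensity per probe set for 45037 probe sets; how the authors summarised and scaled the arrays is not given in the sources used here. Medians of log2 intensity differed by -0.03, under the limit of 0.1, so values were used as deposited. Gene symbols came from GEO's annotation of the platform: 34945 probe sets had 1 symbol, 932 several and 9160 none here. Of those with 1 symbol, 34741 matched the RefSeq table by gene ID. Values under an array's 40th percentile were raised to it before log2. A probe set was measured where it reached this floor on at least 1 array, and where it reached it on 1 array only its difference is a bound.

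Genes were represented by the measured probe set of highest mean log2 intensity. No test was possible, and the number of arrays limits the precision. Python 3.11.15 was used with statsmodels 0.14.6 for lowess, and the steps were tested on simulated data. The floor, the pseudocount, the scaling and the probe set were also varied (10 settings), and reference gene centring was added after the data were seen. Members and lists were chosen with earlier results of these data known. Named were all members and, from each iron or haem list, genes 2-fold or more different and the largest difference in each direction above the floor on both arrays. B2m, Lrp1, Slc7a11, Hamp2 and all genes named from the marker lists are outside this rule and were chosen after their values were seen.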

Additional observations from a re-analysis of the deposited data

How the results depend on the processing

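Of the 11 alternatives, 9 left 1 member 2-fold or more higher. With the mean of the measured probe sets, or the least different probe set, the count was 0, because Hfe then differed by 0.90 and 0.59. The count of members 2-fold or more lower was 0 except with plain probe sets only, where it was 1, Cp at -1.25. With the mean of its probe sets Cp differed by -0.72. The median of the members ranged from -0.17 to -0.02. Hfe, Cp, Hp, Hpx and Heph kept their sign in each setting that gave them a value. Tfrc (-0.04) and Hmox1 (-0.07) changed sign under reference gene centring, and Fth1 (0.09) with the probe set of smallest difference. With plain probe sets Fth1, and with a floor at the 60th percentile Hpx, had no value.

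Over all genes, 163 were 2-fold or more higher and 187 lower. These counts were 598 and 713 with the floor at the 20th percentile, 88 and 65 at the 60th, and 43 and 22 with log2(intensity + 64). Reference gene centring gave 117 and 255. Hpx, near the floor, differed by -0.21 with log2(intensity + 64). No paired analysis was possible because each diet had 1 array.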

Other observations

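Other marker lists, of cells that bear less on iron handling, were compared on the same arrays, as values with no test. Mature adipocyte markers were higher for 5 of the 6 genes, with a median of 0.14 and a summed intensity of 37506.4 on chow against 40891.6 on the high-fat diet, but 3 were higher under quantile normalization and under lowess centring. Endothelial markers were higher for 5 of the 7 genes, with a median of 0.05 and a sum of 1998.1 on chow against 1979.9 on the high-fat diet, and 2 of 7 were higher under reference gene centring. Neutrophil markers were split 3 to 3, or 2 of 6 higher under reference gene centring, with sums of 318.2 and 459.4, or 278.5 and 268.1 without S100a8. Of these S100a8, which encodes a calcium-binding protein, had 39.7 on chow against 191.3 on the high-fat diet, 4.82-fold higher. S100a9, the gene of its partner protein, had 32.9 and 3.5, the latter under the floor. Epididymis markers had 3 measured members, 2 of them lower, with sums of 116.2 and 97.2, and Lcn5 was under the floor on both arrays, at 4.7 and 3.5.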
